A study of Mus musculus with 30 samples.

Results

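The genes described here encode the opioid peptide precursors and the opioid receptors of the mouse: Penk, Pdyn and Pnoc for the peptides, and Oprm1, Oprd1, Oprk1 and Oprl1 for the receptors. They were chosen by name and matched by Ensembl identifier in 3 tables of gene counts, and all 7 were found in each table, out of 55401 genes in the series. RNA-seq of total RNA from the hypothalamus of wild-type B6 (C57) mice covered 30 libraries in 9 groups. The first table held 4 groups with n = 3 each: fed mice, mice after a 24 h fast, mice after a 72 h fast, and mice after a 72 h fast combined with cold treatment at 18 C. The second held mice that had fasted for 72 h and then eaten again for 1 h (n = 3), for 12 h (n = 3) or for 1 week (n = 4), and the third held mice refed for 1 month after a 72 h fast (n = 4) with fed controls of their own (n = 4). The labels name no transgene and no drug. Neither age nor sex nor the number of animals behind a library is given in the sources used here, so p-values measure the spread between these samples, which may be technical. The design follows hypothalamic gene expression through these diet conditions, and each comparison below asks how the opioid genes differed between 2 of its states.

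Opioid peptides are cut from larger precursor proteins and act on receptors that couple to inhibitory G proteins, which lower cyclic AMP, open potassium channels and close calcium channels in neurons. Penk encodes proenkephalin, the source of the enkephalins, which act mainly on the delta receptor Oprd1 and the mu receptor Oprm1. Pdyn encodes prodynorphin, whose dynorphins act mainly on the kappa receptor Oprk1, and Pnoc encodes prepronociceptin, whose product nociceptin acts on Oprl1, the nociceptin receptor, and hardly on the classical opioid receptors. In the hypothalamus, dynorphin is made by neurons that also make vasopressin, orexin or kisspeptin, and opioid signalling is known to influence food intake. Outside it, Penk and Pdyn are known as abundant transcripts of striatal projection neurons.

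The opioid core of each precursor is shown because it is the stretch that opioid receptors recognise. Each line is coding sequence from the GENCODE M21 transcripts on GRCm38, read 5′ to 3′, with the 5 codons of the core in capitals (tyrosine or phenylalanine, glycine, glycine, phenylalanine and 1 more residue) and the 2 flanking codons on either side in lower case.
Penk copy 1: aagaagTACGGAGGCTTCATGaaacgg
Penk copy 2: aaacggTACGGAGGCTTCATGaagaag
Penk copy 3: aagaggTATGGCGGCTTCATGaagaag
Penk copy 4: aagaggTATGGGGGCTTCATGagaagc
Penk copy 5: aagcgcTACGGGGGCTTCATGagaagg
Penk copy 6: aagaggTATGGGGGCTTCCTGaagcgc
Penk copy 7: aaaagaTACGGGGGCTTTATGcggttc
Pdyn copy 1: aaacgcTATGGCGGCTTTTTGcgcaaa
Pdyn copy 2: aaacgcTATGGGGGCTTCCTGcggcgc
Pdyn copy 3: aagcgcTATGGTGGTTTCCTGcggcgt
Pnoc copy 1: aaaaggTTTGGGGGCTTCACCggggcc
Penk held 7 copies in 268 codons, of which 6 ended the core in methionine and 1 in leucine, so it encodes both Met-enkephalin and Leu-enkephalin. Pdyn held 3 copies in 248 codons, all with leucine. Pnoc held 1 copy in 212 codons, which opens with phenylalanine in place of tyrosine. A pair of basic codons, where prohormone convertases cut, stood before the core in all 7 Penk copies, all 3 Pdyn copies and the Pnoc copy. A basic pair also followed the core in 5 Penk copies and 3 Pdyn copies but not in the Pnoc copy.

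The genes lie apart in the genome (GRCm38, GENCODE M21). Penk (ENSMUSG00000045573) spans chr4:4133531-4138819 and Pdyn (ENSMUSG00000027400) chr2:129686565-129699844, both on the minus strand. Pnoc (ENSMUSG00000045731) spans chr14:65400673-65425472 on the minus strand. Oprm1 (ENSMUSG00000000766) spans chr10:6758506-7038198 and Oprk1 (ENSMUSG00000025905) chr1:5588466-5606131, both on the plus strand. Oprd1 (ENSMUSG00000050511) spans chr4:132110726-132144486 on the minus strand, and Oprl1 (ENSMUSG00000027584) chr2:181715016-181720985 on the plus strand. Genes on the opposite strand overlap 55.7% of the Oprm1 span and 9.43% of the Penk span, and no annotated gene overlaps the other 5. The counting options are not given in the sources used here. Ipcef1, the main gene opposite Oprm1, had between 67 and 120 counts in the 1-month table but between 3 and 38 in the fasting table and 2 and 26 in the refeeding table, whose libraries were deeper. Oprm1 values in the fasting and refeeding tables may therefore include reads of that gene, or miss reads of Oprm1 itself from the overlap. Levels were not compared across tables.

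Promoter sequence was at hand for 4 of the 7 genes (RefSeq, GRCm38.p6, Pdyn, Oprm1, Oprd1 and Oprl1). The 250 bases before the most upstream start are shown for Pdyn and Oprd1, which both had lower counts after a 72 h fast in the cold, to show how unlike their base composition is. The capitals mark the only match found to the 3 motifs searched.
Pdyn promoter, chr2:129699939-129700188, minus strand: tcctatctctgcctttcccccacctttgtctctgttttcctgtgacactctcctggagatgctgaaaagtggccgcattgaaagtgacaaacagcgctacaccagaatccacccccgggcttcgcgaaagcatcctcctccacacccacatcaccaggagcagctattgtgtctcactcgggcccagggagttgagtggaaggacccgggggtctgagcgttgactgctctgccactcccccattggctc
Oprd1 promoter, chr4:132144487-132144736, minus strand: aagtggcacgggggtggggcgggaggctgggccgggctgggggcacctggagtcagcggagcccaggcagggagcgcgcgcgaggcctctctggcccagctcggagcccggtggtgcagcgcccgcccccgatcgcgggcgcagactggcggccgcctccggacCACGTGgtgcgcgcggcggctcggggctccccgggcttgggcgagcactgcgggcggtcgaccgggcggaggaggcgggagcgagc
The Oprd1 window was 80.0% G or C with 34 CpG dinucleotides, and the Pdyn window 57.2% with 8, against a median of 52.0% G or C over all promoters in the table. Searched on both strands, the E-box CACGTG was in the Oprd1 window and in 6.04% of 27025 promoters. The cyclic AMP response core CGTCA (17.8% of promoters) and the AP-1 site TGANTCA (6.85%) were in none of the 4 windows. These are matches of letters, with no measure of binding.

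Libraries held between 27.1 and 43.4 M counts in the fasting table, 26.1 and 64.3 M in the refeeding table and 9.35 and 13.8 M in the 1-month table. All 16 hypothalamic markers were detected in each table, with summed levels of 171 to 361, 339 to 617 and 918 to 1212 CPM (counts per M counts) in the 3 tables in that order. Markers of neighbouring tissue were present too. Summed levels of 13 striatal projection neuron markers ran from 613 to 1294 CPM in the fasting table and from 718 to 2212 CPM in the refeeding table, and 8 thalamic markers from 508 to 1910 and from 269 to 505 CPM. Fed library 2 stood apart, with 783 CPM of 6 liver markers and 1129 CPM of 6 skeletal muscle markers. The other 11 libraries of its table had 0.764 to 139 and 0.951 to 15.5 CPM. Among them, liver markers were at 1.97 and 117 CPM in fed libraries 1 and 3 and 41.6 to 139 CPM at 24 h. They were at 1.48 to 1.57 CPM at 72 h and 0.764 to 1.87 CPM in the cold. The part of liver tissue in the opioid gene levels of that table was not tested. Fed library 3 had the most choroid plexus RNA of that table (226 CPM over 8 markers, against 21.3 to 132 CPM in the others). Cortical markers summed to between 19.6 and 182 CPM in the fasting table and pan-neuronal markers to between 2756 and 3595 CPM. Anterior pituitary markers stayed at or below 5.32 CPM in the fasting table, and in the refeeding and 1-month tables they ran between 0.807 and 183 CPM.

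Expression is given below as CPM on the scale of edgeR's trimmed mean of M values (TMM), with the SD between libraries. Changes are log2 fold changes of the second group over the first, ± SE, from edgeR's quasi-likelihood test on all genes of a table. A gene was called where its Benjamini-Hochberg adjusted p was below 0.05. In bulk tissue, fewer cells of a type and less RNA per cell cannot be told apart.

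Levels compared between genes need a length, and the labels do not state whether reads were counted over exons or over whole gene spans. Levels are therefore given per kb of both, and the order of the genes depended on the choice. In the fed libraries of the fasting table Penk was highest per kb of gene span, 32.1 ± 14.8 CPM per kb (SD, n = 3), followed by Oprl1 at 7.79 ± 0.553. Pdyn (2.22 ± 0.781) and Oprk1 (1.47 ± 0.0518) came next and lay within 1 SD of each other. Oprm1 (0.525 ± 0.0406), Pnoc (0.393 ± 0.0152) and Oprd1 (0.308 ± 0.0449) were lowest per kb of span. Per kb of exon in the same libraries Penk was again highest (104 ± 48.0), but Oprm1, the gene with the longest span of the 7, came next at 18.3 ± 1.41, ahead of Oprl1 (12.4 ± 0.879) and Pdyn (10.2 ± 3.59). Pnoc (4.51 ± 0.175) followed, and Oprk1 (2.84 ± 0.0999) and Oprd1 (2.59 ± 0.377) were within 1 SD of each other at the low end.

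In the 1-month fed controls, per kb of exon, Penk (45.7 ± 5.25 CPM per kb, n = 4) and Oprl1 (25.4 ± 1.57) were highest. Pdyn (13.6 ± 2.82) and Pnoc (9.98 ± 1.97) followed and overlapped within 1 SD, and Oprm1 (4.49 ± 0.463), Oprk1 (2.43 ± 0.384) and Oprd1 (1.22 ± 0.215) closed the order. Per kb of span, Oprl1 (15.96 ± 0.988) and Penk (14.1 ± 1.62) were highest, and their SD ranges overlapped. Oprd1 (0.145 ± 0.0256) and Oprm1 (0.129 ± 0.0133) were lowest and lay within 1 SD of each other.

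**Figure D1:**
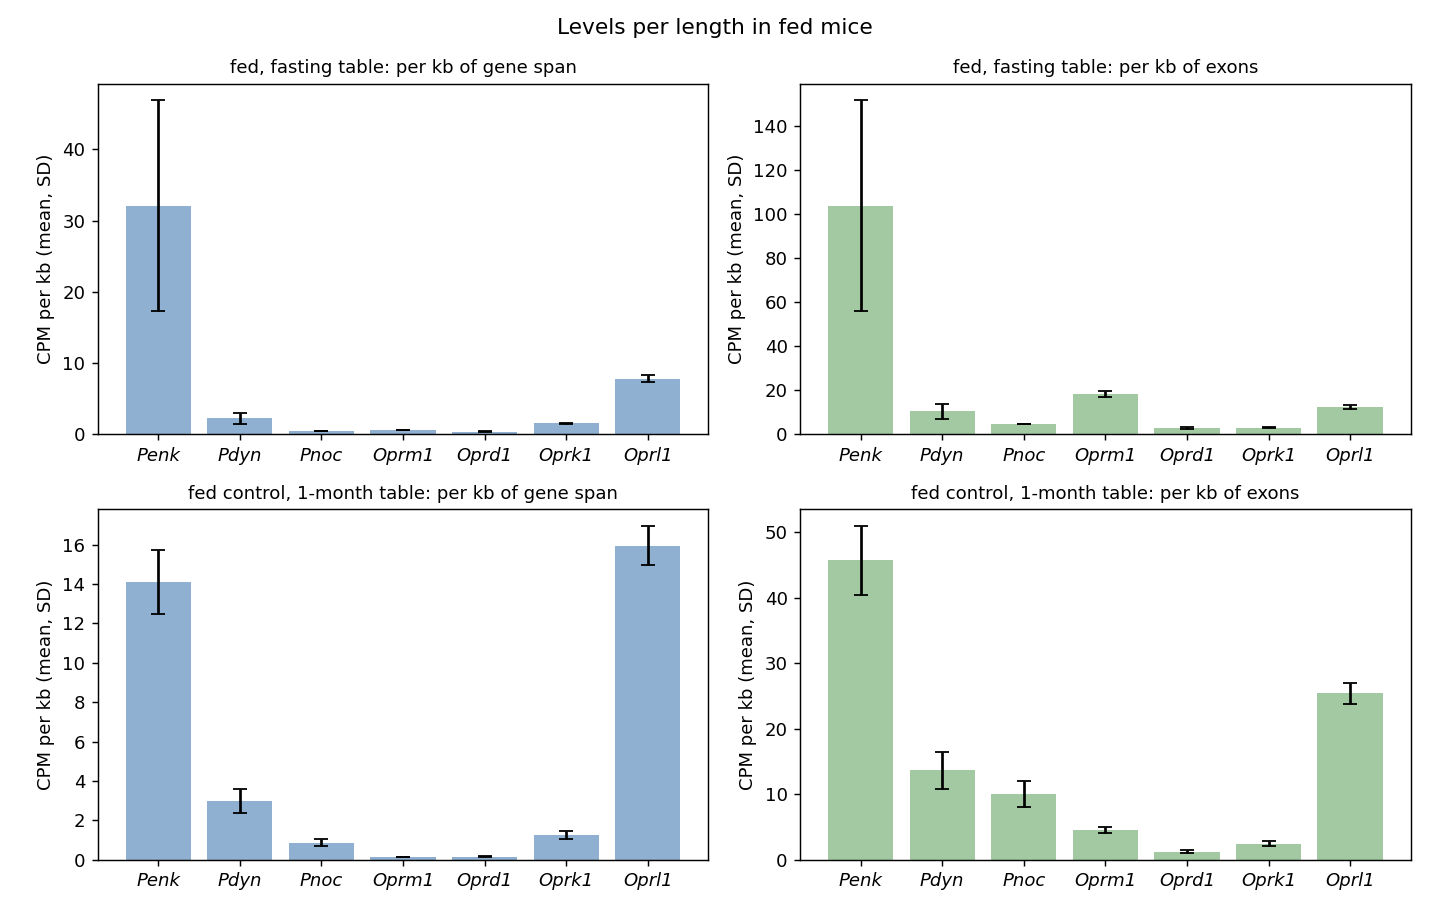
Level of each opioid gene per kb (CPM per kb, mean with SD bars) in fed mice, per kb of gene span (left) and per kb of exon (right), in the fasting table (top, n = 3) and in the 1-month fed controls (bottom, n = 4). Oprm1 moves from 0.525 per kb of span to 18.3 per kb of exon in the fasting table, while Penk stands highest in 3 of the 4 panels and Oprl1 in the other.

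Among the peptide genes, Penk and Pdyn were lower after a 72 h fast than in fed mice, with or without cold, while neither differed detectably between 24 h of fasting and the fed state. Pnoc was called in no comparison. Of the receptors, Oprm1 was lower after a 72 h fast without cold and Oprd1 after a 72 h fast in the cold. In the refeeding table the receptors carried the calls: Oprm1, Oprd1 and Oprk1 were higher at 12 h than at 1 h, and by 1 week Oprd1 and Oprk1 had fallen from their 12 h level while Oprl1 had risen. None of the 7 genes was called 1 month after refeeding.

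**Figure D2:**
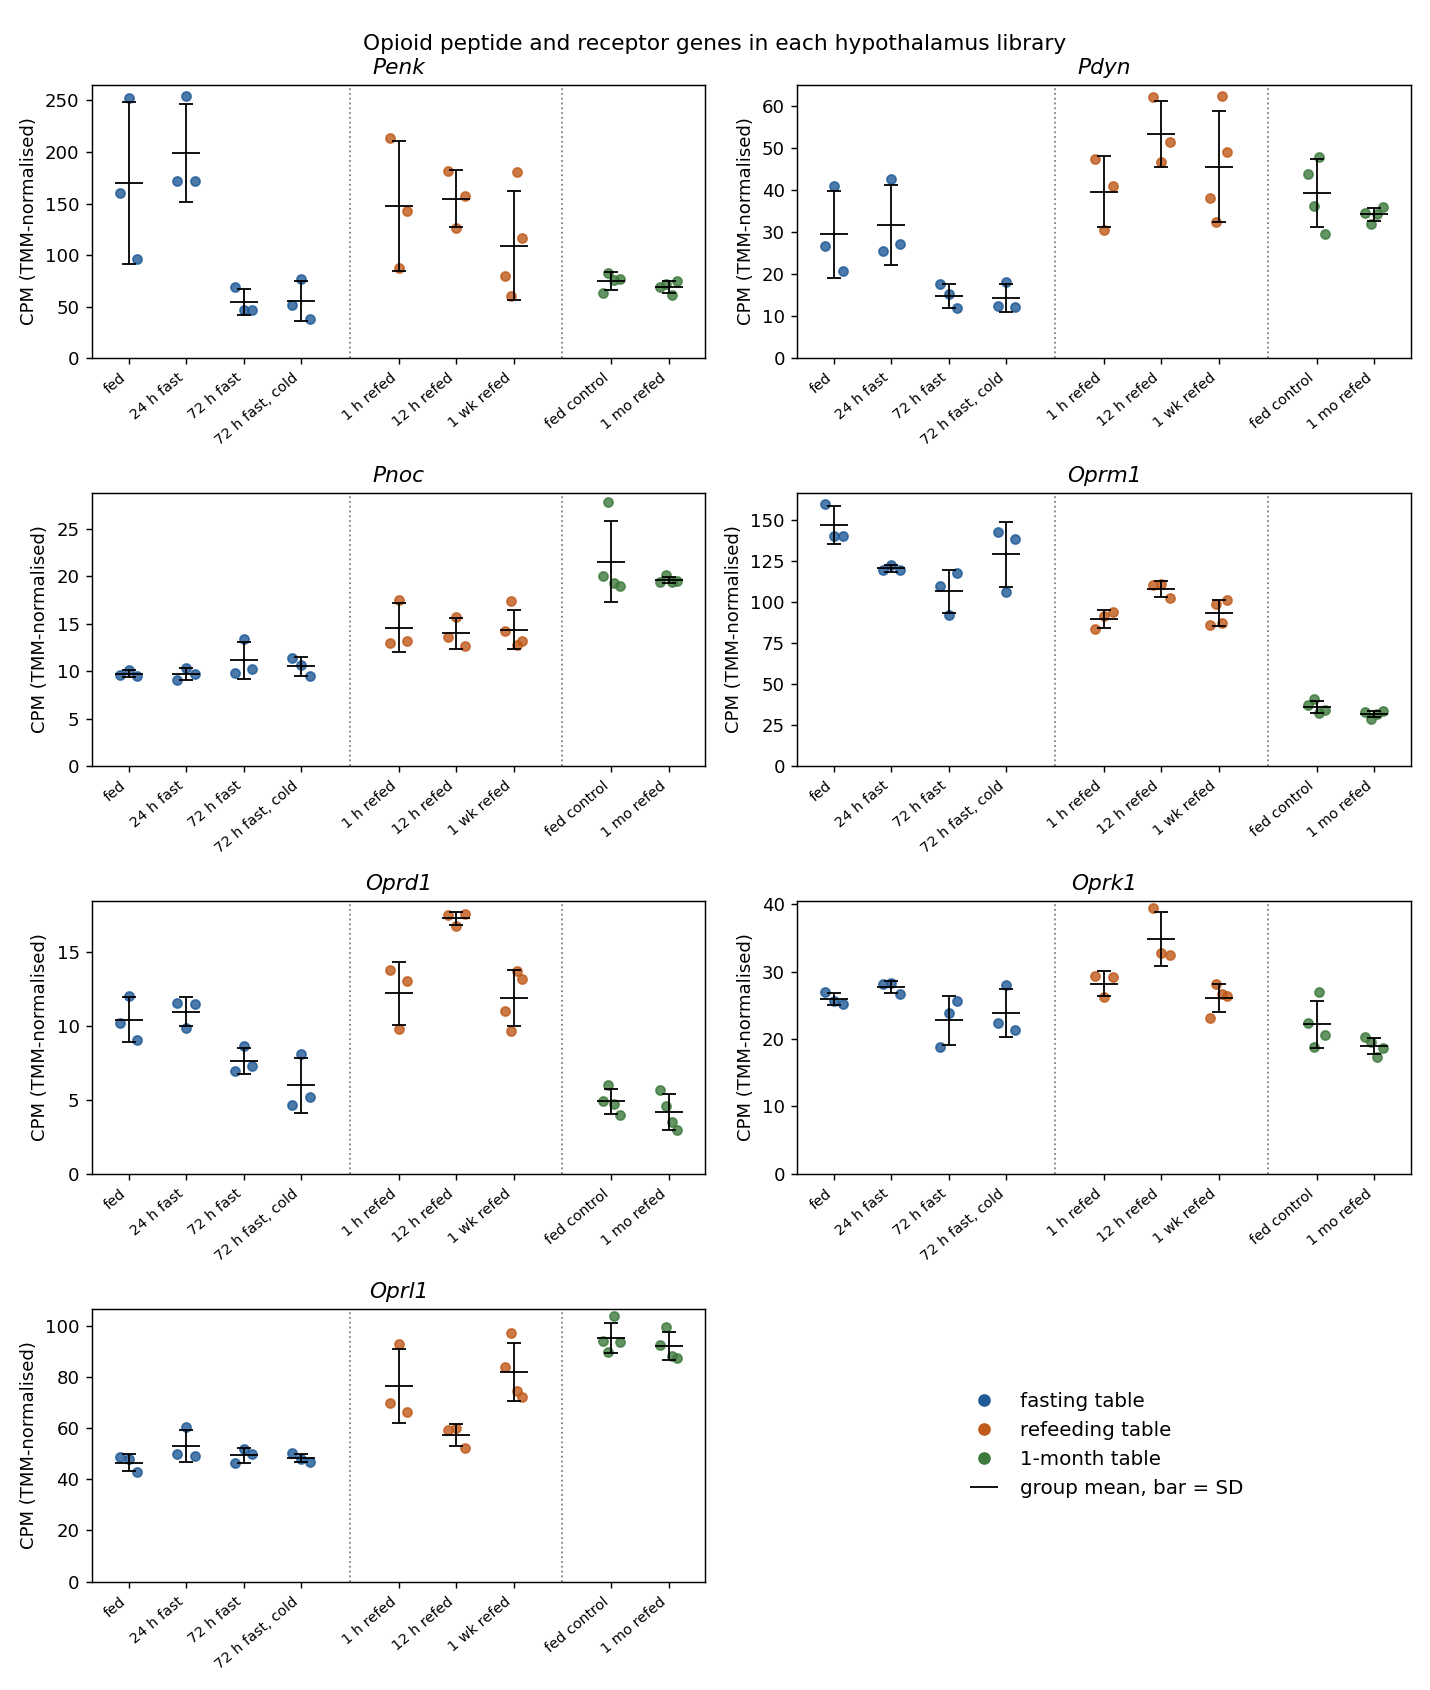
CPM of each opioid gene in every library (points) with the group mean and SD (bars), for the 9 groups in their 3 tables. Penk and Pdyn sit low in the 72 h groups with and without cold, and within the refeeding table Oprd1 and Oprk1 are highest at 12 h, where Oprd1 lies between 16.8 and 17.6 CPM.

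Read against all genes, these counts were not large in every comparison. At 72 h against fed, 3 of the 7 genes were called and all 3 were lower, while 15.1% of all tested genes were called and 7.78% were called lower. In the cold against fed it was again 3 of 7, all lower, against 17.9% of genes called and 9.16% called lower, and in the cold against 24 h 3 of 7, all lower, against 6.98% and 3.22%. At 72 h against 24 h, 1 of 7 was called, against 1.63% of genes called and 1.06% called lower. Between 1 h and 12 h of refeeding, 3 of 7 were called, all higher, against 14.2% of genes called and 7.08% called higher. At 1 week against 12 h, 3 of 7 were called, 2 lower and 1 higher, against 11.6% of genes, 5% lower and 6.56% higher. Comparisons that share the fed, the 24 h or the 12 h libraries share those values.

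The remaining 4 comparisons gave 0 calls among the 7 genes in edgeR and in DESeq2. They were 24 h against fed (0.0343% of all genes called), cold against plain 72 h (0% called), 1 week against 1 h (26.9%) and 1 month against its fed control (10.1%). At an unadjusted p below 0.05, 1, 1, 0 and 0 of the 7 passed in these comparisons, beside 10.4%, 6.35%, 38.8% and 27.1% of all genes tested. The medians over the 7 genes were -0.45 at 72 h against fed, -0.19 in the cold against fed, 0.27 at 12 h against 1 h, -0.23 at 1 week against 12 h and -0.19 at 1 month, beside medians of 0.01, -0.03, 0.00, -0.01 and 0.00 over all genes tested.

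Penk stood at 161, 252 and 96.1 CPM in fed libraries 1 to 3 and at 172, 254 and 172 CPM in the 24 h libraries. After 72 h it was 69.0, 46.9 and 47.1 CPM, and after 72 h in the cold 51.6, 76.8 and 38.0 CPM. Every library of either 72 h group lay below every fed and every 24 h library, while the fed and 24 h groups overlapped. The means were 170 ± 78.4 CPM fed and 54.3 ± 12.7 CPM at 72 h (SD, n = 3 each), a fall by 1.64 ± 0.35 on the log2 scale, or 3.12-fold (adjusted p = 0.0183). Against 24 h (199 ± 47.7 CPM) the 72 h level was lower by -1.87 ± 0.35 (adjusted p = 0.0318). The cold group (55.5 ± 19.7 CPM) was lower than fed by -1.61 ± 0.35 (adjusted p = 0.0148) and lower than 24 h by -1.84 ± 0.35 (adjusted p = 0.0197). Between the 24 h and fed groups the difference was 0.23 ± 0.34 (95% interval -0.44 to 0.90), and between the cold and the plain 72 h group 0.03 ± 0.34 (-0.64 to 0.71), neither called.

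The Penk calls were sensitive to single libraries, although the direction held in each such refit. Against fed, the 72 h call ended without fed library 2 (-1.24, adjusted p = 0.0507), 72 h library 2 (-1.57, 0.0610) or 72 h library 3 (-1.57, 0.0746). Against 24 h it held without 24 h library 1 (-1.98) and ended without 24 h library 2 (-1.66, adjusted p = 0.162), 24 h library 3 (-1.98, 0.0658), or 72 h library 1 (-2.09, 0.0660), 2 (-1.79, 0.119) or 3 (-1.79, 0.130). The cold call against fed ended without cold library 1 (-1.54, adjusted p = 0.0658), and that against 24 h without 24 h library 2 (-1.63, 0.0900), cold library 1 (-1.77, 0.0981) or cold library 3 (-1.63, 0.0561). Without fed library 2, which had the most liver and muscle RNA, the fall in the cold against fed was -1.21 and was called. Every Penk call ended with 1 surrogate variable: -0.66 (adjusted p = 0.746) at 72 h and -0.60 (0.691) in the cold against fed, and -1.11 (0.615) and -1.04 (0.390) against 24 h. Without a filter on low counts the 72 h call against 24 h ended (-1.89, 0.0688).

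Pdyn was at 26.7, 40.9 and 20.7 CPM in the fed libraries and at 25.4, 42.6 and 27.2 CPM after 24 h. It was 17.6, 15.2 and 11.8 CPM after 72 h, and 12.4, 18.1 and 12.2 CPM after 72 h in the cold. Here too every 72 h library, cold or not, lay below every fed and 24 h library. The mean fell from 29.5 ± 10.4 to 14.9 ± 2.89 CPM between fed and 72 h, a difference of -0.99 ± 0.27 (1.98-fold, adjusted p = 0.0351). The cold group, at 14.2 ± 3.32 CPM, was lower than fed by -1.05 ± 0.27 (adjusted p = 0.0253) and lower than 24 h (31.7 ± 9.45 CPM) by -1.16 ± 0.27 (adjusted p = 0.0334). The step from 24 h to 72 h, -1.09 ± 0.27, missed the threshold (adjusted p = 0.0640; 0.00216 in DESeq2), and the differences between 24 h and fed (0.11 ± 0.27) and between cold and plain 72 h (-0.06 ± 0.27) were not called.

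Single libraries decided the Pdyn calls as well. The 72 h call against fed remained without fed library 3 (-1.19) and ended without fed library 1 (-1.05, adjusted p = 0.0712) or 2 (-0.68, 0.127), or 72 h library 1 (-1.15, 0.0584), 2 (-1.02, 0.0865) or 3 (-0.87, 0.120). The cold call against fed ended without fed library 2 (-0.74, 0.0931), cold library 1 (-0.94, 0.106) or cold library 3 (-0.95, 0.0742). Against 24 h it ended without 24 h library 2 (-0.89, 0.128) or 3 (-1.23, 0.0613), or cold library 1 (-1.04, 0.143) or 3 (-1.06, 0.0883). When the fit held 1 surrogate variable, the 72 h and cold differences from fed shrank to -0.02 and -0.05 and the cold difference from 24 h to -0.34, none of them called. Without a filter on low counts the adjusted p was 0.0643 at 72 h and 0.0563 in the cold against fed, and 0.0671 in the cold against 24 h.

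Markers of striatal projection neurons moved with these 2 genes. The summed level of the 13 markers was 966, 1294 and 830 CPM in fed libraries 1 to 3, the same order in which Penk and Pdyn stood there, and 1270 to 1278 CPM at 24 h. It was 613 to 697 CPM at 72 h and 720 to 949 CPM in the cold. The marker lists were chosen with earlier results of these data known. Of the 13, none was at 0, and 7 were called lower and 0 higher at 72 h against fed. Over all genes 7.78% were called lower there, and the medians were -0.81 for the markers and 0.01 for all genes. Against 24 h, 8 were lower at 72 h (median -1.53), beside 1.06% of all genes. In the cold 5 were lower than fed (median -0.57) and 8 lower than at 24 h (median -1.18), beside 9.16% and 3.22% of all genes. Drd1, the dopamine receptor of the direct pathway, was at 34.8 CPM in fed, 41.3 CPM in 24 h and 6.01 CPM in 72 h libraries (means). Another marker, Drd2, fell less, with means of 35.0, 44.1 and 24.1 CPM in the same order. It was not called at 72 h against fed (-0.54 ± 0.23, adjusted p = 0.122) or against 24 h (-0.87 ± 0.23, adjusted p = 0.0734). Cortical markers moved too, with 3 of 6 called lower at 72 h and 4 of 6 in the cold against fed. In the same order, choroid plexus markers had 5 of 7 and 4 of 7 tested called lower. Liver markers had 4 of 6 and 5 of 6, and skeletal muscle markers 4 of 4 tested in both. The part of these tissues in the Penk and Pdyn results was not tested.

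For hypothalamic neurons known to make dynorphin, of 6 markers (Avp, Oxt, Kiss1, Tac2, Hcrt and Lhx9), 5 could be tested and Kiss1 was listed at 0 counts in every library of the 3 tables. None of the 5 was called in any comparison of the fasting table by edgeR, and their medians were 0.02 at 72 h against fed and -0.01 in the cold against fed. Among them, Avp was at -0.71 ± 0.44 and Oxt at -0.42 ± 0.51 in the cold against fed. Their summed level was 134 to 203 CPM in fed, 143 to 186 CPM in 72 h and 119 to 153 CPM in cold libraries. Of the 16 hypothalamic markers, 0 were called at 72 h against fed and 1, Pomc, was called lower in the cold. Their medians were -0.01 at 72 h and -0.29 in the cold against fed, and 0.01 and -0.44 against 24 h.

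**Figure D3:**
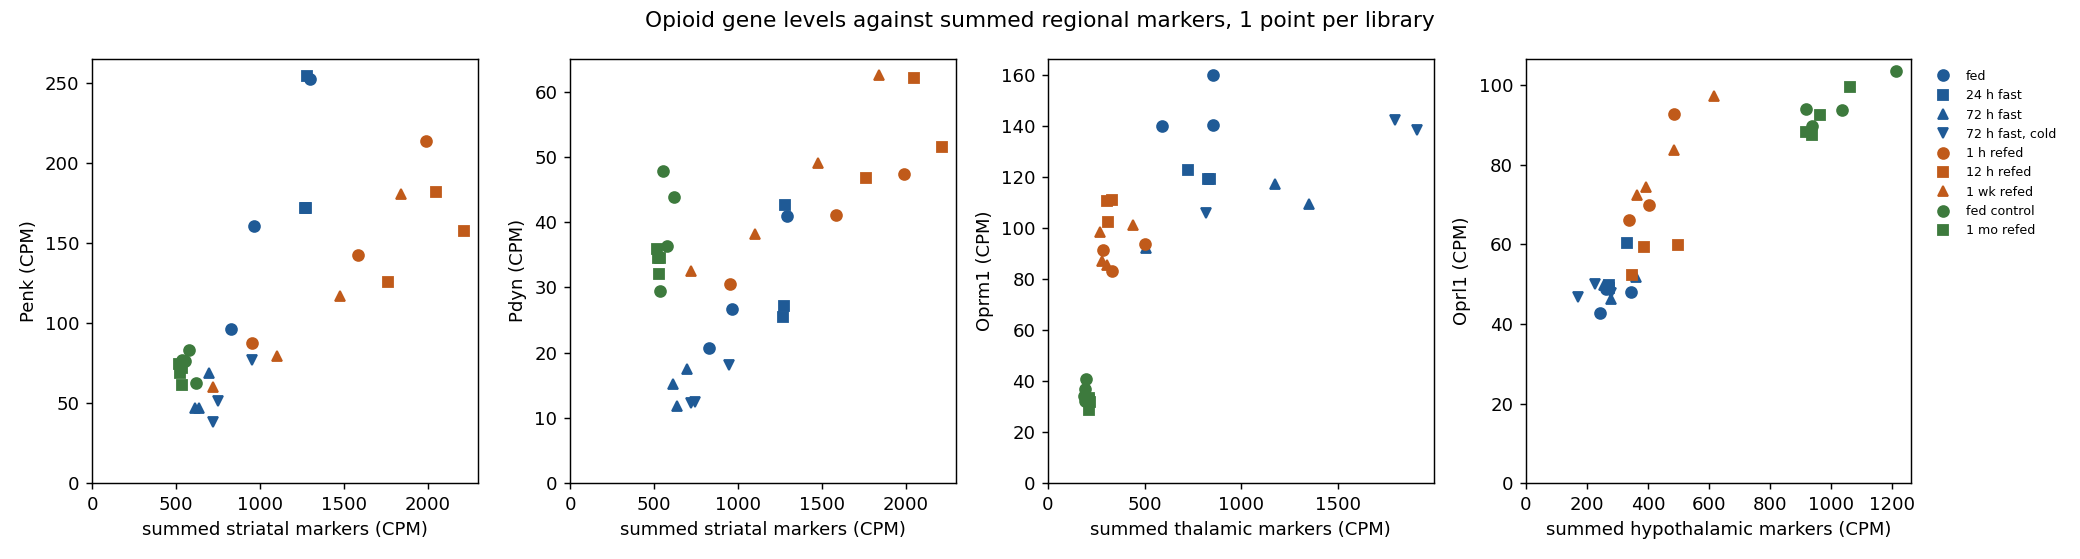
Level of a gene (CPM) against the summed level of regional markers (CPM) in every library: Penk and Pdyn against 13 striatal markers, Oprm1 against 8 thalamic markers and Oprl1 against 16 hypothalamic markers, with colours for the tables and symbols for the groups. Among fasting libraries the 72 h points, with 613 to 697 CPM of striatal markers, sit left of all other points of that table. In Penk they lie with the cold group below every fed and 24 h library, while cold library 2, at 949 CPM of striatal markers, lies to the right of fed library 3 at 830 CPM.

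In the refeeding table Penk and Pdyn spread widely between the libraries of each group. Penk stood at 214, 87.4 and 142 CPM at 1 h, 181, 126 and 157 CPM at 12 h, and 79.3, 60.1, 180 and 117 CPM at 1 week. The groups overlapped throughout, and the differences of 12 h over 1 h (0.07 ± 0.47), 1 week over 12 h (-0.50 ± 0.44) and 1 week over 1 h (-0.44 ± 0.44) were not called. Pdyn was 47.3, 30.6 and 41.1 CPM at 1 h, 62.1, 46.8 and 51.4 CPM at 12 h, and 38.2, 32.5, 62.5 and 49.1 CPM at 1 week, with differences of 0.43 ± 0.27, -0.23 ± 0.25 and 0.20 ± 0.25 in the same order, none called. Striatal markers in these libraries summed to 1988, 950 and 1583 CPM at 1 h, 2049, 1764 and 2212 CPM at 12 h, and 1102, 718, 1840 and 1475 CPM at 1 week. The library lowest in Penk was the lowest in these markers in each of the 3 groups.

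Pnoc, called in no comparison, was at 9.60, 10.2 and 9.45 CPM fed, 9.11, 10.3 and 9.71 CPM at 24 h, 9.83, 13.4 and 10.3 CPM at 72 h and 11.4, 10.6 and 9.44 CPM in the cold. In the refeeding table it ran from 12.6 to 17.5 CPM over all 10 libraries. Its differences in the fasting table lay between -0.09 ± 0.14 (cold against plain 72 h) and 0.20 ± 0.14 (72 h against fed, 95% interval -0.08 to 0.47, adjusted p = 0.335). In the refeeding table they lay between -0.06 ± 0.14 and 0.04 ± 0.13. A fall of the size seen for Penk is outside these intervals.

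Oprm1, the mu receptor and the target of morphine, was 160, 140 and 140 CPM in fed libraries and 119, 123 and 119 CPM at 24 h. After 72 h it was 110, 92.3 and 117 CPM, and in the cold 142, 106 and 139 CPM. All 72 h libraries lay below all fed and 24 h libraries, whereas the cold group overlapped both. The mean went from 147 ± 11.4 to 106 ± 12.9 CPM between fed and 72 h, a change of -0.46 ± 0.12 (1.38-fold, adjusted p = 0.0279). At 24 h (120 ± 1.99 CPM) the difference from fed was -0.29 ± 0.12 (adjusted p = 0.440), and in the cold (129 ± 19.9 CPM) it was -0.19 ± 0.12 (adjusted p = 0.279). The difference of 0.28 ± 0.12 between cold and plain 72 h was not called (adjusted p = 0.754).

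The 72 h call of Oprm1 held without fed library 3 (-0.50). It ended without fed library 1 (-0.40, adjusted p = 0.104) or 2 (-0.50, 0.0712), or 72 h library 1 (-0.50, 0.0592), 2 (-0.39, 0.0871) or 3 (-0.56, 0.0555), and with 1 surrogate variable (-0.51, 0.464). The overlap with Ipcef1 applies to all these values. Thalamic markers, which summed to 593 to 855 CPM in fed libraries, were at 1349, 508 and 1173 CPM in 72 h libraries 1 to 3 and at 1796, 816 and 1910 CPM in cold libraries 1 to 3. Library 2 was lowest in Oprm1 and in these markers in both groups. At 24 h library 2 was lowest in the markers (726 CPM) but highest in Oprm1 (123 CPM). Fed library 2 was lowest in the markers (593 CPM), with Oprm1 at 140 CPM as in fed library 3. The marker median at 72 h against fed was 0.29, with 0 of 8 called. The part of these markers in the Oprm1 values was not tested.

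During refeeding, Oprm1 was 83.3, 91.5 and 93.9 CPM at 1 h, 111, 111 and 102 CPM at 12 h, and 85.7, 98.6, 87.3 and 101 CPM at 1 week. All 12 h libraries were above all others. The rise from 89.6 ± 5.56 to 108 ± 4.94 CPM between 1 h and 12 h was 0.27 ± 0.08 (1.20-fold, adjusted p = 0.0308). From 12 h to 1 week (93.2 ± 7.80 CPM) the change of -0.21 ± 0.07 missed the threshold (adjusted p = 0.0672). Without 1-week library 4 it passed (-0.25, 0.0383). The rise at 12 h ended as a call without 1 h library 1 (0.21, adjusted p = 0.139) or 2 (0.27, 0.0805), or 12 h library 1 (0.24, 0.0597) or 2 (0.24, 0.105). From 1 h to 12 h the striatal marker median was 0.40, with 0 of 13 called. The thalamic median was -0.33, with 1 of 8 called lower, beside 14.2% of all genes called in either direction. The part of these markers in the Oprm1 rise was not tested.

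Oprd1, the delta receptor that enkephalins bind, was at 10.2, 12.0 and 9.02 CPM in fed and 11.6, 9.86 and 11.5 CPM in 24 h libraries. It was 6.93, 8.63 and 7.30 CPM after 72 h, and 4.65, 8.08 and 5.20 CPM after 72 h in the cold. The libraries of both 72 h groups lay below those of the fed and 24 h groups, with cold libraries 1 and 3 lowest. The cold group mean of 5.98 ± 1.85 CPM was lower than fed (10.4 ± 1.52 CPM) by -0.80 ± 0.20 (1.74-fold, adjusted p = 0.0199) and lower than 24 h (10.97 ± 0.960 CPM) by -0.88 ± 0.20 (1.84-fold, adjusted p = 0.0277). At 72 h without cold (7.62 ± 0.894 CPM) the difference from fed was -0.45 ± 0.20 (adjusted p = 0.124), and the cold group differed from it by -0.35 ± 0.20 (95% interval -0.74 to 0.04, adjusted p = 0.870). The 2 groups fasted for 72 h were thus not shown to differ in Oprd1.

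The cold call of Oprd1 against fed was lost without fed library 1 (-0.82, adjusted p = 0.05004) or 2 (-0.69, 0.0805), or cold library 1 (-0.62, 0.0968) or 3 (-0.71, 0.0587). Against 24 h it was lost without 24 h library 1 (-0.82, 0.0573) or 3 (-0.82, 0.0718), or cold library 1 (-0.70, 0.130) or 3 (-0.79, 0.0721). The differences with 1 surrogate variable were -0.71 (adjusted p = 0.437) and -0.81 (0.305). In the cold group striatal markers summed to 747, 949 and 720 CPM and hypothalamic markers to 225, 280 and 171 CPM in libraries 1 to 3, so library 2 was highest in both sums and in Oprd1. Fed library 2 was likewise highest in both sums (1294 and 344 CPM) and in Oprd1. At 24 h library 2 was highest in both sums (1278 and 333 CPM) but lowest in Oprd1. At 72 h without cold, library 2 was highest in Oprd1 and in hypothalamic markers (361 CPM) but lowest in striatal markers (613 CPM). The part of these markers in the Oprd1 result was not tested.

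Within the refeeding table Oprd1 was highest at 12 h. It was 13.8, 9.79 and 13.04 CPM at 1 h, 17.5, 16.8 and 17.6 CPM at 12 h, and 11.02, 9.67, 13.7 and 13.2 CPM at 1 week, so that the 12 h group stood clear of both others. From 1 h (12.2 ± 2.12 CPM) to 12 h (17.3 ± 0.441 CPM) it rose by 0.50 ± 0.14 (1.41-fold, adjusted p = 0.0285). From 12 h to 1 week (11.9 ± 1.89 CPM) it changed by -0.54 ± 0.13 (1.45-fold lower, adjusted p = 0.0165). The rise kept its call without 1 h library 1 (0.59) and lost it without 1 h library 2 (0.36, adjusted p = 0.124) or 3 (0.54, 0.0509), or 12 h library 1 (0.48, 0.0573), 2 (0.51, 0.0653) or 3 (0.50, 0.0880). The fall lost it without 12 h library 3 (-0.53, 0.0746) or 1-week library 1 (-0.50, 0.0527), and with 1 surrogate variable (-0.29, 0.0847). Striatal marker sums were 1764 to 2212 CPM at 12 h, 950 to 1988 CPM at 1 h and 718 to 1840 CPM at 1 week, with 0 of 13 markers called in the refeeding table. Cortical markers summed to 24.0 to 100.4 CPM at 12 h and 20.4 to 31.0 CPM at 1 week, with 3 of 6 called lower. The part of either tissue was not tested.

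Oprk1, the dynorphin receptor, was at 29.4, 26.2 and 29.2 CPM at 1 h, 39.5, 32.8 and 32.4 CPM at 12 h, and 23.2, 28.1, 26.7 and 26.3 CPM at 1 week. All 12 h libraries exceeded all others. From 12 h (34.9 ± 3.96 CPM) to 1 week (26.1 ± 2.08 CPM) it fell by 0.42 ± 0.09 on the log2 scale (1.34-fold, adjusted p = 0.00767), and the call held without each of the 7 libraries of the comparison in turn, between -0.48 and -0.31. Over the same step the striatal marker median was -0.84, with 0 of 13 called. The cortical median was -1.05, with 3 of 6 called lower, beside 5% of all genes. The part of either tissue in the Oprk1 result was not tested. The rise of Oprk1 from 1 h (28.3 ± 1.79 CPM) to 12 h was 0.30 ± 0.09 (1.23-fold, adjusted p = 0.0423). That call was lost without any of the 6 libraries, with values of 0.33, 0.24 and 0.31 without 1 h libraries 1 to 3 (adjusted p = 0.0817, 0.186 and 0.0838) and 0.19, 0.34 and 0.36 without 12 h libraries 1 to 3 (0.157, 0.0639 and 0.0537), and with size factors in place of TMM (0.29, 0.0502).

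In the fasting table Oprk1 did not pass. It was 27.0, 25.7 and 25.3 CPM fed, 28.2, 28.3 and 26.8 CPM at 24 h, 18.8, 23.9 and 25.7 CPM at 72 h, and 22.4, 28.0 and 21.4 CPM in the cold. The 72 h group overlapped the fed group and lay below the 24 h group, from which it differed by -0.28 ± 0.13 (95% interval -0.53 to -0.04, adjusted p = 0.199). The other 5 differences lay between -0.21 and 0.10.

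Oprl1, the nociceptin receptor, was lowest at 12 h within the refeeding table. It was 70.0, 92.8 and 66.1 CPM at 1 h, 59.4, 60.0 and 52.2 CPM at 12 h, and 83.8, 97.3, 74.5 and 72.3 CPM at 1 week, with all 12 h libraries below all others. From 12 h (57.2 ± 4.31 CPM) to 1 week (82.0 ± 11.4 CPM) it rose by 0.52 ± 0.13 (1.43-fold, adjusted p = 0.0278). The lower level at 12 h against 1 h (76.3 ± 14.4 CPM), -0.42 ± 0.14, missed the threshold in edgeR (adjusted p = 0.0698) and passed in DESeq2 (-0.43, adjusted p = 0.0170), without 1 h library 3 (-0.52, 0.0368) and with 1 surrogate variable (-0.24, 0.0165). The rise lost its call without 12 h library 1 (0.56, adjusted p = 0.0664), 2 (0.56, 0.0721) or 3 (0.45, 0.141) or 1-week library 1 (0.51, 0.0681), and without a filter on low counts (0.54, 0.0625). With 1 surrogate variable it was 0.27 and called. Library 2, the highest of the 1 h and 1-week groups, also had the most hypothalamic marker RNA of its group (485 and 617 CPM). At 12 h library 2 was highest in both too, with 500 CPM of these markers and Oprl1 at 60.0 CPM. The median of these markers was 0.08 at 12 h against 1 h and 0.09 at 1 week against 12 h. The part of these markers was not tested.

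In the fasting table Oprl1 was 48.7, 48.1 and 42.7 CPM fed, 49.8, 60.4 and 49.2 CPM at 24 h, 46.3, 51.9 and 49.9 CPM at 72 h and 50.1, 47.8 and 46.9 CPM in the cold. Its 6 differences there lay between -0.14 and 0.19, none of them called. The values of the 72 h groups overlapped those of the fed group.

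**Figure D4:**
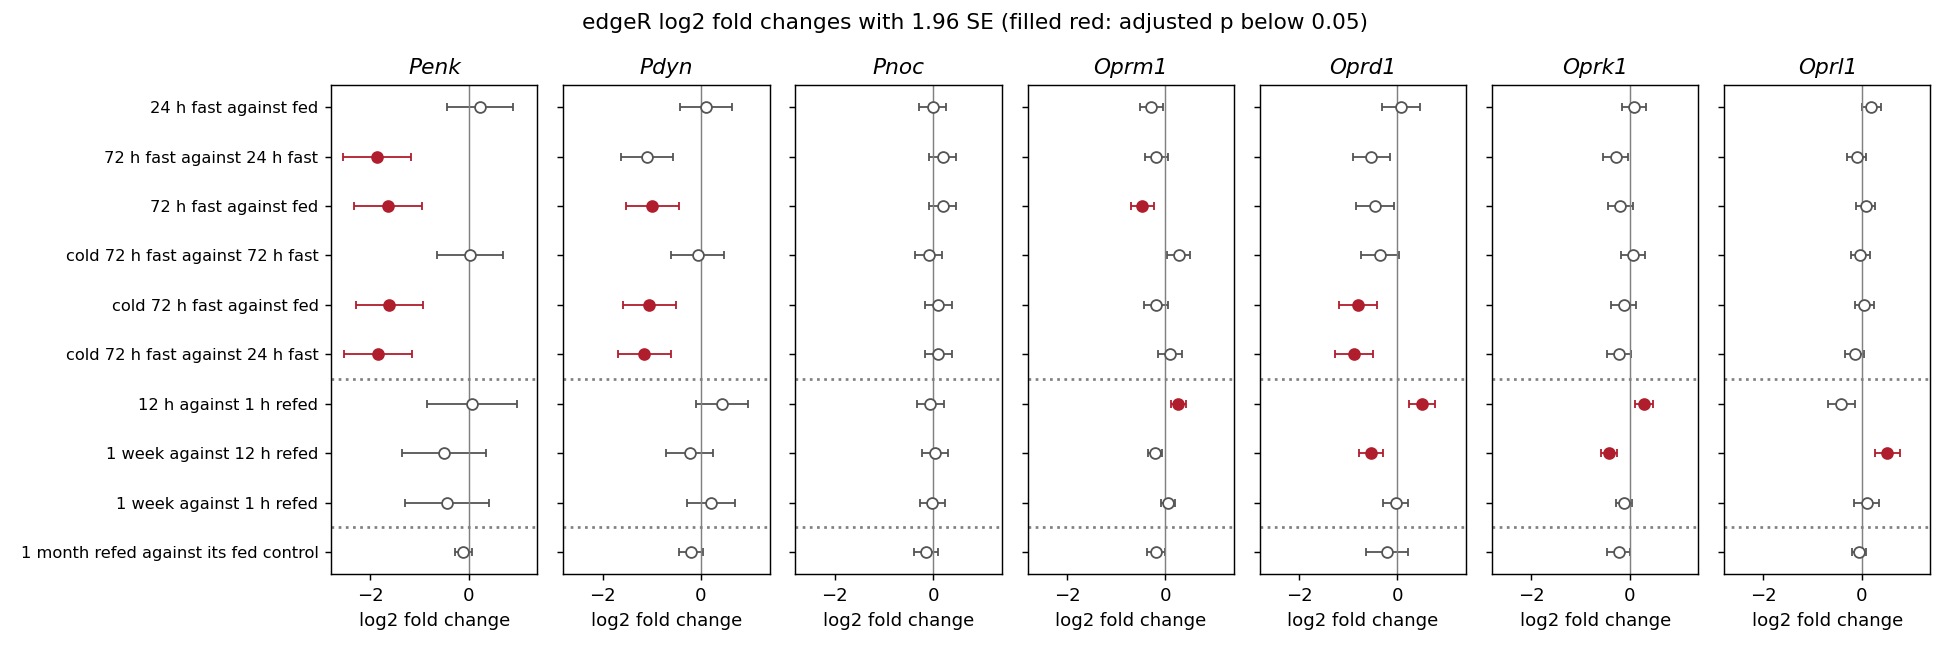
Log2 fold change with its 95% interval for each opioid gene in the 10 comparisons, second group over first. Filled points are called by edgeR at an adjusted p below 0.05. The most negative values are those of Penk in the 2 groups fasted for 72 h, against 24 h (-1.87, and -1.84 in the cold) and against fed (-1.64 and -1.61).

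After 1 month of refeeding all 7 genes had means slightly below their fed controls, with none called. In control libraries 2 to 5 and refed libraries 1, 2, 4 and 5, Penk was 62.7, 83.0, 76.2 and 76.8 CPM and 68.8, 72.2, 61.5 and 74.3 CPM (-0.11 ± 0.09). Pdyn was 43.8, 36.4, 47.8 and 29.5 CPM against 34.6, 32.0, 34.4 and 35.9 CPM (-0.20 ± 0.12, adjusted p = 0.314), and without control library 5, the lowest control, the difference was -0.32 and was called (adjusted p = 0.0351). Oprm1 was 37.0, 40.9, 32.3 and 34.2 CPM against 32.8, 28.9, 31.8 and 33.3 CPM (-0.19 ± 0.10, adjusted p = 0.208). The groups overlapped for each of these 3 genes. Oprk1 (22.2 ± 3.52 and 19.0 ± 1.24 CPM, -0.22 ± 0.12), Oprd1 (4.90 ± 0.863 and 4.18 ± 1.21 CPM, -0.21 ± 0.22), Pnoc (21.5 ± 4.25 and 19.6 ± 0.348 CPM, -0.14 ± 0.12) and Oprl1 (95.3 ± 5.90 and 91.9 ± 5.47 CPM, -0.05 ± 0.07) were not called either (SD, n = 4 each). Striatal markers were at 535 to 618 CPM in controls and 519 to 533 CPM in refed libraries, with 1 of 12 tested called higher. Of the dynorphin neuron markers 1 of 5 tested was called lower (median -0.18), and of the hypothalamic markers 1 of 16 (median -0.08). These last lists share Avp, Oxt and Hcrt. Over all genes 10.1% were called in either direction. The part of these markers in the opioid gene values was not tested.

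The authors' deposited tables, from edgeR, listed Penk and Pdyn below 0.05 for the fast and no opioid gene for refeeding. Their method of adjustment is not stated, so their threshold and the one used above are not known to be alike. For 1 h over 12 h they held 429 genes below 0.05, where 2834 were called above. For 72 h over 24 h, the authors' deposited table lists Penk at -1.85 (adjusted p = 1.16e-12) and Pdyn at -1.07 (adjusted p = 0.0422), both below 0.05. In the authors' deposited table for 1 week over 12 h of refeeding, Oprl1 (0.52, adjusted p = 0.369), Oprd1 (-0.54, 0.500) and Oprk1 (-0.42, 1) were not below 0.05. Oprd1 and Oprk1 likewise had an adjusted p of 1 in the authors' deposited table for 1 h over 12 h.

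Other genes of opioid signalling were read from a list of 42, of which 40 could be tested in the fasting and refeeding tables and 42 in the 1-month table. The list was not tested as a set, and the share of all tested genes called in either direction is given beside each count. At 72 h against fed, 2 were higher and 6 lower (15.1% of all genes called), with a list median of -0.05. The lower ones included Creb1, a transcription factor activated by cyclic AMP (117 to 85.1 CPM, -0.46 ± 0.08, adjusted p = 0.00942), Pcsk1, a convertase that cuts peptide precursors (76.8 to 51.8 CPM, -0.57 ± 0.12, adjusted p = 0.0131), and 2 regulators of G protein signalling, Rgs14 (13.4 to 5.08 CPM, -1.39 ± 0.27) and Rgs4 (155 to 86.8 CPM, -0.84 ± 0.20). In the cold against fed, 4 were higher and 9 lower (median -0.01), beside 17.9% of all genes called. Creb1 (-0.54 ± 0.08) and Rgs14 (-1.24 ± 0.27) were among them again, as was Pomc, the precursor of beta-endorphin (6.11 to 2.31 CPM, -1.41 ± 0.28), and Grk3, a receptor kinase, was higher (108 to 150 CPM, 0.47 ± 0.10). The inhibitory G protein gene Gnaz was listed at 0 in these tables and not tested.

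At 72 h against 24 h, 0 of the 40 were higher and 2 lower, beside 1.63% of all genes called. These were Rgs14 (-1.61 ± 0.28) and Adcy5 (306 to 199 CPM, -0.62 ± 0.13). Adcy5, an adenylyl cyclase, is abundant in striatum and stands in the striatal marker list too. In the cold against 24 h, 2 were higher and 4 lower, beside 6.98% of all genes called. Rgs7 was at 1.20 ± 0.26, Rgs14 at -1.46 ± 0.27, Rgs19 at -0.54 ± 0.11 and Creb1 at -0.39 ± 0.08. None passed for 24 h against fed or for cold against plain 72 h, in edgeR, beside 0.0343% and 0% of all genes.

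From 1 h to 12 h of refeeding, 3 of the 40 were higher and 4 lower, beside 14.2% of all genes called. The receptor kinase Grk6 (55.6 to 43.5 CPM, -0.35 ± 0.06) and Ogfr, the opioid growth factor receptor (28.3 to 22.5 CPM, -0.33 ± 0.08), were lower, and the cyclase Adcy8 (0.33 ± 0.08) and the peptidase Anpep (0.90 ± 0.23), an enzyme that degrades enkephalin, were higher. From 12 h to 1 week 1 gene passed, beside 11.6% of all genes. It was Pcsk1n, an inhibitor of Pcsk1 (493 to 390 CPM, -0.34 ± 0.08). Over the whole span from 1 h to 1 week, 3 were higher and 7 lower, beside 26.9% of all genes called. The lower ones included Pcsk1n (-0.54 ± 0.08) and the receptor kinases Grk6 (-0.30 ± 0.06), Grk3 (-0.27 ± 0.06) and Grk5 (-0.53 ± 0.12). At 1 month 2 were higher and 4 lower, beside 10.1% of all genes called. Anpep rose from 5.37 to 22.3 CPM (2.06 ± 0.16, adjusted p = 3.43e-06). Choroid plexus markers, of which 2 of 4 tested were called higher, summed to 37.8 to 45.4 CPM in controls and 55.9 to 68.7 CPM in refed libraries, and their part was not tested. By contrast the calcium channel genes Cacna1b (-0.36 ± 0.08) and Cacna1a (-0.30 ± 0.09) and the potassium channel gene Kcnj9 (-0.38 ± 0.10) were lower at 1 month.

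Genes with the most similar pattern were found by the mean of 3 Pearson correlations of log2 CPM, over the 12, 10 and 8 libraries of the tables, among 10962 genes. For Penk they were Meis2 (mean r 0.90), Gucy1a1 (0.85) and Tmem158 (0.84), and for Pdyn Doc2b (0.88), Prkar2b (0.87) and Ngef (0.87). Pnoc had lower values, with Kcnk9 (0.76), Gnas (0.75) and Dlk1 (0.74). Oprm1 came with Madd (0.79), Rgs17 (0.76) and Psd3 (0.75), Oprk1 with Klhdc1 (0.73), Doc2b (0.73) and Zfp831 (0.72), Oprd1 with Dclk3 (0.82), Selplg (0.82) and Mmp17 (0.81), and Oprl1 with Tmem179 (0.86), Wdr6 (0.83) and Araf (0.81). Doc2b stood in the lists of both Pdyn and its receptor Oprk1. The correlations are descriptions over libraries that share depth, group and regional RNA.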

How the data were processed

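Total RNA of mouse hypothalamus was depleted of ribosomal RNA and made into directional libraries, per the labels' protocols. HISAT2, featureCounts and edgeR with the build mm10 are named in the submitters' processing notes, with no version numbers. Raw counts per gene, not normalised, were deposited by the authors in 3 tables. They also deposited edgeR tables with a log2 fold change and an adjusted p-value per gene, whose method of adjustment the labels do not state. Among the count columns, 2 that match no labelled sample were not used. All groups of a table were fitted together and tables were never joined. In edgeR 4.0.16 under R 4.3.3, filterByExpr chose the genes, TMM set the scale and the robust quasi-likelihood test gave p-values, which were adjusted by Benjamini-Hochberg over all 20408, 19932 or 14867 genes tested in the table and a prior count of 0.125. The replicate numbers were not shown to pair the samples. In the fasting, refeeding and 1-month tables, 4 of 18, 1 of 9 and 0 of 3 pairs of equal number had deviations correlated above 0.1. Among pairs of unequal number it was 8 of 36, 3 of 24 and 1 of 13. So few pairs cannot exclude a pairing. Each of the 36 replicate pairs differed by more than sampling noise (chi-square per degree of freedom 3.19 to 106). Libraries 1 and 3 of the 24 h fast were the closest pair among the fasting libraries, at 3.51. The other pairs there were at 15.8 to 106, with 24 h library 2 at 95.9 and 79.1 against libraries 1 and 3. Whether libraries 1 and 3 are independent samples was not tested. Comparisons with the 24 h group may therefore rest on fewer than 3 independent samples of it. Alternatives were RLE size factors, no filter on low counts, a replicate block, 1 surrogate variable (sva 3.50.0), DESeq2 1.42.0 and leaving out each library. The genes and the lists (opioid pathway genes and markers of cell types and neighbouring tissues) were chosen with earlier results of these data known. All 7 genes were named in every comparison, and from the pathway list at most 4 called genes with the smallest adjusted p. Similar genes were the 3 with the highest mean correlation, on log2 CPM with a prior count of 2, among genes with a mean of at least 5 CPM in each table.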

Additional observations from a re-analysis of the deposited data

Results flagged for a closer look

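Pnoc in the fed controls of the 1-month table had 1 library far from the other 3. Control library 3 was at 27.9 CPM, the next at 20.1 CPM and the lowest at 18.9 CPM, so that the gap took 0.873 of the group's range, above the 95% critical value of Dixon for 4 libraries. This was 1 of 21 sets of values examined, 1 for each of the 7 genes in each group of 4 libraries. Chance flags about 1 in 20, and sets from the same group share their libraries. Without that library the difference of Pnoc between refed and control mice was 0.012 on the log2 scale.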

How the results depend on the processing

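Of 798 log2 fold changes recomputed under alternative settings, 668 kept their direction and their side of the threshold, 76 lost a call, 9 gained 1 and 45 changed sign, none of the last a called value. The number of opioid genes called moved as follows. It was 0 with 1 surrogate variable at 72 h against fed and against 24 h and in the cold against fed and 24 h. At 72 h against 24 h it was 2 with DESeq2 (Pdyn in addition), 2 with the replicate block and 0 without a filter on low counts. Without single libraries the count ran from 0 to 1 at 72 h against 24 h, 0 to 3 at 72 h against fed, 0 to 3 in the cold against fed, 0 to 3 in the cold against 24 h, 0 to 2 from 1 h to 12 h, 1 to 4 from 12 h to 1 week and 0 to 1 at 1 month. With the block on replicate number, which was not shown to pair the samples, Pdyn passed at 72 h against 24 h (-1.06, adjusted p = 0.0132). In that fit Oprl1 passed from 1 h to 12 h (-0.40, 0.00631) and Oprm1 from 12 h to 1 week (-0.26, 0.0343). Oprk1 lost its call from 1 h to 12 h (0.30, 0.0742), and no other call changed.

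Signs changed for small differences. For Pnoc at 24 h against fed the value was 0.0063 with RLE size factors, 0.0064 with DESeq2 and 0.018 with 1 surrogate variable. That fit also gave Oprl1 at 0.062 at 72 h against 24 h and 0.035 in the cold against 24 h. In it Penk was -0.27 and Pnoc 0.12 from 1 h to 12 h, Pdyn was 0.090, Penk 0.035 and Pnoc -0.21 from 12 h to 1 week, and Oprd1 was 0.052 from 1 h to 1 week. With the replicate block Penk was -0.049 in the cold against plain 72 h and Pnoc was 0.025 from 1 h to 1 week and 0.019 at 1 month. Without single libraries the values at 24 h against fed ran from -0.050 to 0.032 for Pnoc, -0.16 to 0.42 for Pdyn, -0.053 to 0.63 for Penk and -0.018 to 0.19 for Oprd1. In the cold against fed Oprl1 ran from -0.0055 to 0.087. In the cold against plain 72 h Pdyn ran from -0.27 to 0.11, Penk from -0.28 to 0.27, Oprk1 from -0.059 to 0.20, Pnoc from -0.14 to 0.092 and Oprl1 from -0.045 to 0.035. Refeeding values ran from -0.17 to 0.064 for Oprd1 and -0.12 to 0.14 for Pnoc from 1 h to 1 week, -0.21 to 0.43 for Penk and -0.16 to 0.085 for Pnoc from 1 h to 12 h, and -0.056 to 0.14 for Pnoc from 12 h to 1 week. At 1 month Pnoc ran from -0.20 to 0.012. The causes were not tested.

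The number of all genes called moved too. A fit with 1 surrogate variable called 23 at 24 h against fed (7 in the fit above), 0 at 72 h against 24 h (333), 2 at 72 h against fed (3072), 12 in the cold against fed (3661), 0 in the cold against 24 h (1424), 727 from 12 h to 1 week (2304) and 130 at 1 month (1506). DESeq2 gave 206 at 24 h against fed, 1720 at 72 h against 24 h, 53 in the cold against plain 72 h (0 in edgeR, with 1296 at an unadjusted p below 0.05) and 2707 in the cold against 24 h. Without the filter it was 13 at 24 h against fed, and with the block 408 at 1 month. Without single libraries it ran from 3 to 56 at 24 h against fed, 0 to 328 at 72 h against 24 h, 434 to 5446 at 72 h against fed, 932 to 5507 in the cold against fed, 39 to 989 in the cold against 24 h, 1314 to 3537 from 1 h to 12 h, 589 to 3050 from 12 h to 1 week and 775 to 2856 at 1 month, with fewer samples in each such fit. Oprd1 at 1 month was read from 28 to 79 counts a library, the fewest of the 7 genes in any table.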
